A study of Homo sapiens with 6 samples.

Results

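The genes described here are the cyclins, the cyclin-dependent kinases (CDKs), their inhibitors and regulators, and the RB and E2F genes, 53 genes chosen by name of the 23382 gene names in the deposited count table. All 53 were found in the table. The cells were UM-UC-3, an established human bladder cancer line. The labels divide the 6 libraries into 3 negative controls and 3 with an siRNA to CPSF3, which encodes the nuclease that cuts pre-mRNA ahead of polyadenylation. The labels give no siRNA sequence, dose or time, name no second siRNA or cell line, and do not say whether replicates 1 to 3 came from separate cultures, so each p-value is set against library-to-library spread that may be purely technical.

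Cyclins bind and activate CDKs. In the cell-cycle branch of the family, D-type cyclins with CDK4 and CDK6 phosphorylate the retinoblastoma protein RB1 in G1 and release E2F transcription factors, cyclins E and A act with CDK2 in S phase, and cyclins A and B act with CDK1 at mitosis. A second branch, which includes CDK7 with cyclin H, CDK8 with cyclin C, CDK9 with cyclin T and CDK12 and CDK13 with cyclin K, phosphorylates RNA polymerase II or the machinery around it. Loss of RB1 or of the inhibitor locus CDKN2A and gain of D-type cyclins or E2F3 are recurrent in bladder cancer.

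Total counts lay between 4145385 and 4378899 per library, and the 53 genes together took 0.0686% to 0.0860% of them. The targeted gene did not have lower counts under the si-CPSF3 label. CPSF3 had 20, 50 and 36 counts in control libraries and 56, 38 and 66 in the others, at 8.10 ± 3.15 and 13.0 ± 3.54 CPM (counts scaled to library size, which was adjusted for composition; SD, n = 3 in each group). Its log2 fold change was 0.67 (SE 0.32, edgeR adjusted p = 0.329). Groups are therefore named below only by their labels. Of 12 epithelial markers searched, 9 were in the table: the keratins KRT8 and KRT18 were abundant, KRT7 was low, and EPCAM, CDH1, KRT19 and UPK2 were at 0 counts in every library. All 6 mesenchymal markers searched were in the table, with VIM abundant and FN1 at 0 to 2 counts. Their summed level was 334.8, 303.2 and 285.5 CPM in control libraries and 264.8, 236.1 and 273.3 CPM under the si-CPSF3 label, without overlap. Most of the sum was VIM, at a mean of 275 CPM in control libraries and 236 in the others (edgeR adjusted p = 0.512). SPARC, a matrix protein gene among them, fell (log2 fold change -2.22, edgeR adjusted p = 0.00208). Of the 4 mesenchymal markers tested, 2 had a log2 fold change below 0 and 2 above, with a median of 0.004. In the table were 3 of 7 leukocyte, 1 of 5 erythroid and 1 of 4 endothelial markers searched, and CD14, HBA1 and PECAM1 among them reached at most 2 counts in any library. The summed leukocyte list, mainly CD68 and LYZ, lay at 38.6 to 43.4 CPM in control libraries and 27.7 to 34.4 CPM in the others. The part of either list in the results was not tested.

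Of the 53 genes, 38 had enough counts to be tested, 12 had counts too low, and 3 had no count in any library. With edgeR's quasi-likelihood test, 0 of the 38 passed an adjusted p of 0.05, against 2.23% of the 11069 genes tested (0.723% higher and 1.51% lower). An unadjusted p under 0.05 was reached by 5 higher and 4 lower genes, where 7.05% and 8.33% of all tested genes did so. The 3 libraries of each group did not overlap for 7 genes that were higher and 6 that were lower in the libraries labelled si-CPSF3, against 9.82% and 11.4% of all tested genes (21.2% together). The median log2 fold change of the 38 genes was -0.04, beside -0.01 over all genes tested. The lowest adjusted p-values came in both directions: cyclin B1 was lower, and CDK6, the inhibitor CDKN2C and cyclin I were higher, each with an adjusted p between 0.058 and 0.069. A fit without the filter on low counts called these 4 genes and no other of the 53, as did a fit in which distinct rows of a gene were summed, and DESeq2 called CCNI alone.

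The genes were expressed over a wide range of levels. On the deposited FPKM scale (fragments scaled by gene length and library size), which allows genes of different length to be compared, CKS1B, an adaptor that binds CDKs, was highest, at 109 ± 29.9 FPKM in control libraries and 123 ± 15.7 in the others (SD, n = 3). CCNI followed at 52.7 ± 16.2 and 68.4 ± 15.1 FPKM. The phosphatase CDC25B, cyclin D1, the phosphatase CDKN3 and CDK4 had the next levels, at control means of 31.5, 29.3, 25.8 and 23.6 FPKM, and these 4 did not differ from one another beyond their spread. Among D-type cyclins, CCND2 lay at 3.82 ± 1.23 and CCND3 at 2.46 ± 1.20 FPKM in control libraries, both far under CCND1, so cyclin D1 was the main transcript of its family here. CDK1 and CCNA2 ranked 37 and 34 of 53.

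**Figure D1:**
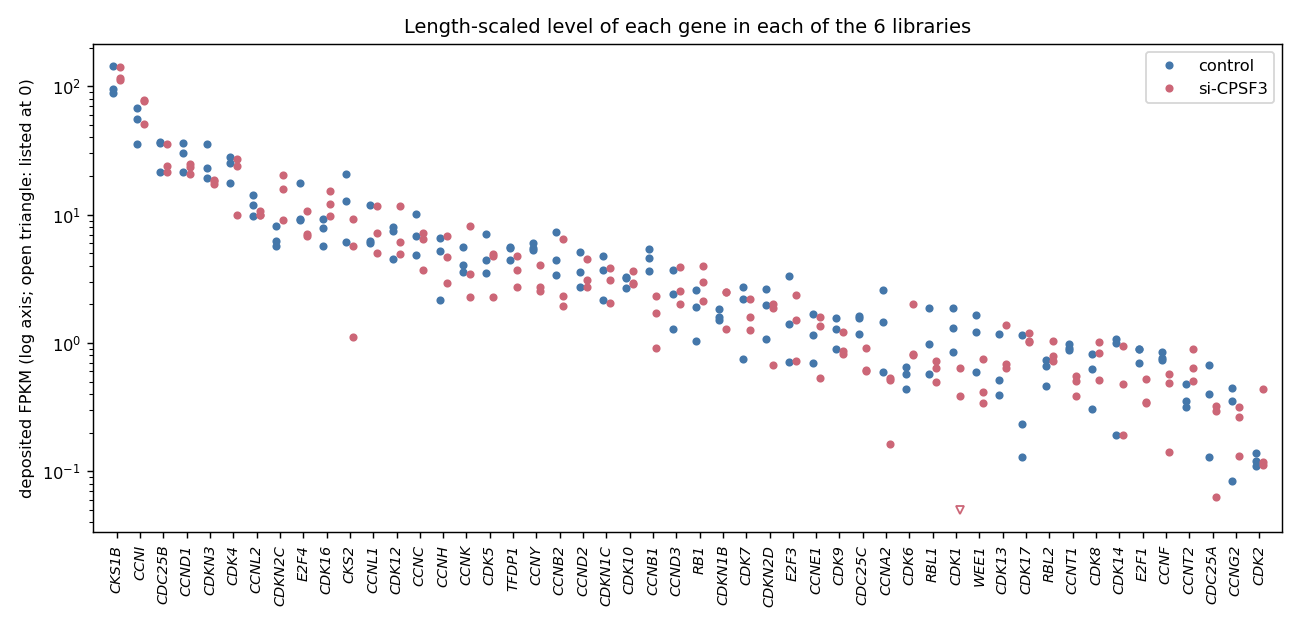
Deposited FPKM of the 50 genes with any count, on a log axis, for each of the 3 control and 3 si-CPSF3 libraries; genes are ordered by their mean over the 6 libraries and an open triangle marks a library listed at 0. CKS1B is highest, and the cell-cycle kinase CDK1 lies among the lower levels, with 1 library labelled si-CPSF3 at 0.

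Among the cell-cycle cyclins, 6 of 9 could be tested and 5 of these 6 had a log2 fold change below 0. CCNB1, the cyclin that drives entry into mitosis with CDK1, had 8.36, 6.88 and 7.55 CPM in control replicates 1, 2 and 3 and 2.42, 4.20 and 1.59 CPM in replicates 1, 2 and 3 under the si-CPSF3 label. Every library labelled si-CPSF3 lay below every control library. The fold was 0.363 with a 95% interval of 0.207 to 0.638 (log2 fold change -1.46, SE 0.38, edgeR adjusted p = 0.0609). CCNB1 occupies chr5:69167150-69178245 (GRCh38). CCNB2, the second B-type cyclin, overlapped between groups, since replicate 1 of the libraries labelled si-CPSF3, at 6.98 CPM, was above all 3 controls and replicates 2 and 3 were below them. CCNF, a cyclin that acts as a ubiquitin ligase subunit, had 2.94, 3.33 and 2.86 CPM in the controls and 2.69, 2.10 and 0.454 CPM in the others, without overlap but short of the threshold (log2 fold change -0.82, SE 0.55, edgeR adjusted p = 0.528).

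Of the D-type cyclins, CCND1 and CCND2 had narrow intervals that include no change. CCND1 had 119, 111 and 109 CPM in control libraries and 104, 99.0 and 107 CPM in the others. The groups did not overlap, and the difference was about the size of its standard error (log2 fold change -0.13, SE 0.14, edgeR adjusted p = 0.726), and the 95% interval of the fold ran from 0.745 to 1.12. CCND2 gave an interval of 0.714 to 1.23. CCNE1, the cyclin of the G1/S transition, was not tested, with 9, 10 and 5 counts in the controls and 8, 4 and 10 in the others.

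CDK6, 1 of the 2 kinases that partner D-type cyclins, was higher in the libraries labelled si-CPSF3. It had 7.23, 6.46 and 4.94 CPM in control libraries and 11.0, 10.3 and 18.8 CPM in the others. The groups did not overlap, and replicate 3 of the libraries labelled si-CPSF3 stood above the other two. The fold was 2.14 with an interval of 1.38 to 3.33 (log2 fold change 1.10, SE 0.30, edgeR adjusted p = 0.0689). CDK4, its closest relative, gave no clear direction, at 24.4, 43.1 and 53.6 CPM in the controls and 50.2, 17.5 and 49.4 in the others. A low library stood in each group, and the log2 fold change of CDK4, -0.05 (SE 0.32, edgeR adjusted p = 0.966), ran from -0.31 to 0.32 as single libraries were left out; it was 0.01 without control replicate 2, 0.22 without control replicate 3 and 0.32 without replicate 2 of the libraries labelled si-CPSF3. Whether CDK6 and CDK4 differ in their response was not tested.

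**Figure D2:**
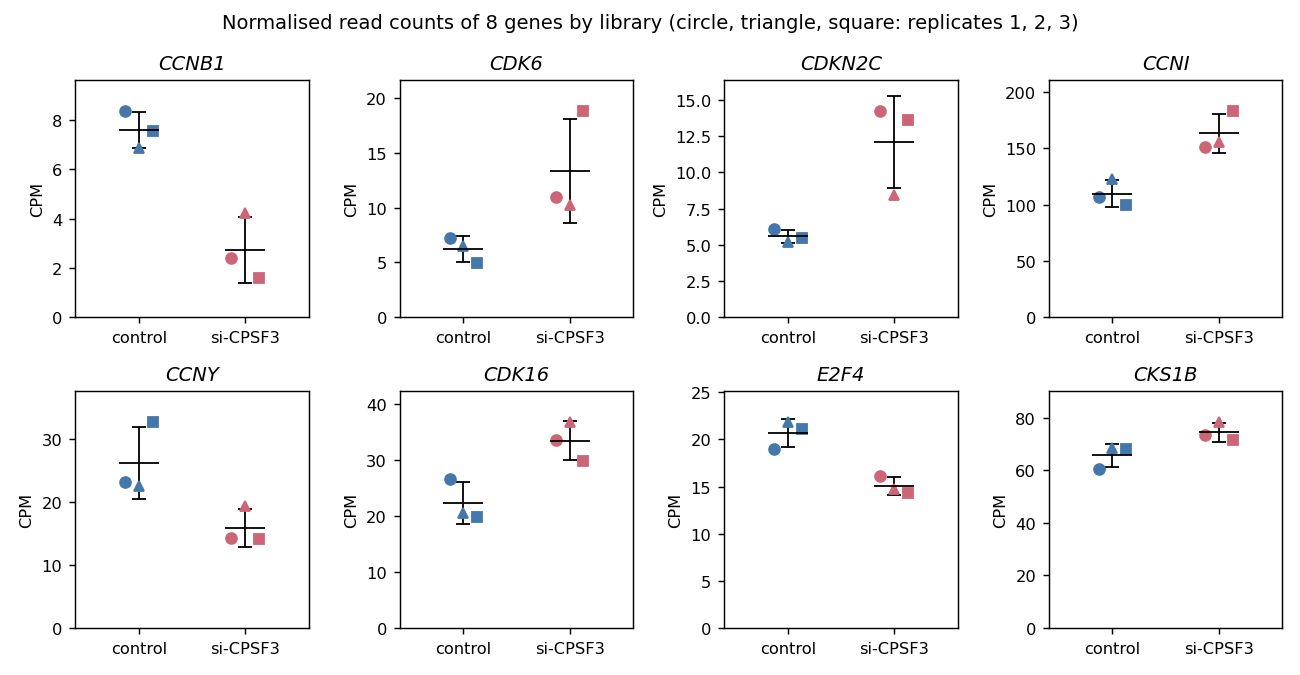
Normalised counts (CPM) of 8 genes in each library, with circles, triangles and squares for replicates 1, 2 and 3, and the mean with SD of each group of 3. CCNB1, CCNY and E2F4 lie lower and CDK6, CDKN2C, CCNI, CDK16 and CKS1B higher in the libraries labelled si-CPSF3, with no overlap of groups; none passed the adjusted threshold.

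CDK1, the kinase of mitosis, had too few counts for the test. It had 6, 11 and 10 counts in control libraries and 0, 3 and 3 under the si-CPSF3 label. The ratio of the summed, library-adjusted counts was 0.234, with an exact interval of 0.0790 to 0.578 that covers counting error only. CCNA2, the S- and M-phase cyclin, had 17, 20 and 7 counts against 6, 2 and 5, a ratio of 0.311 (interval 0.154 to 0.588, counting error only). In both genes every library labelled si-CPSF3 lay below every control library. In the fit without a count filter their log2 fold changes were -2.05 and -1.62, with edgeR adjusted p = 0.232 for CDK1 and 0.166 for CCNA2. CDK2, which partners cyclins E and A, was nearly absent from the table, at 1 count in 5 libraries and 3 in the sixth. CDK2 overlaps the coding gene PMEL in GENCODE 29, CDK4 overlaps TSPAN31, CCNE2, which had 0 counts, overlaps INTS8 and NDUFAF6, and CDKN2A and CDKN2B, also at 0, overlap AL359922.1. In all, 16 of the 53 genes overlap another coding gene, and the counting of reads in such overlaps was not stated in any source used.

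CKS1B and CKS2 are small proteins that bind CDKs and help them engage substrates, and their transcripts had fold changes of opposite sign, a difference that was not tested. CKS1B had 60.5, 68.4 and 68.2 CPM in the controls and 73.3, 78.5 and 71.4 CPM in the others. The groups did not overlap, but the interval of the fold, 0.916 to 1.40, includes 1 (log2 fold change 0.18, SE 0.14, edgeR adjusted p = 0.609). CKS1B has processed pseudogene copies, so its level is uncertain. CKS2 had 2.94, 5.84 and 7.81 CPM in the controls and 0.537, 2.80 and 2.95 CPM in the others. The lowest control and the highest other library overlapped by a narrow margin, and the fold of 0.393 (interval 0.182 to 0.848) did not pass (log2 fold change -1.35, SE 0.52, edgeR adjusted p = 0.218). CDKN3, a phosphatase that acts on CDKs, went from 17.0 ± 4.39 to 12.4 ± 1.79 CPM (SD, n = 3), with overlapping groups.

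Of the CDC25 phosphatases, which remove the inhibitory phosphates from CDKs, only CDC25B could be tested. CDC25B had 76.1, 50.0 and 71.0 CPM in the controls and 84.6, 54.2 and 64.6 in the others, and the groups overlapped (log2 fold change 0.04, SE 0.19, edgeR adjusted p = 0.942). This small change was below 0 in other settings, at -0.06 with library totals as the only scaling. CDC25C, which acts on CDK1 at mitosis, had 10, 11 and 6 counts in the controls and 4 in each of the others. WEE1, the kinase that opposes CDC25 by placing the inhibitory phosphate, was also lower in counts, at 7, 19 and 15 against 4, 5 and 6. The ratios were 0.468 (interval 0.216 to 0.955) for CDC25C and 0.385 (interval 0.198 to 0.711) for WEE1, counting error only, so an activator and an inhibitor of CDK1 lay on the same side. Neither passed in the fit without a count filter, with edgeR adjusted p = 0.663 for CDC25C and 0.317 for WEE1.

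**Figure D3:**
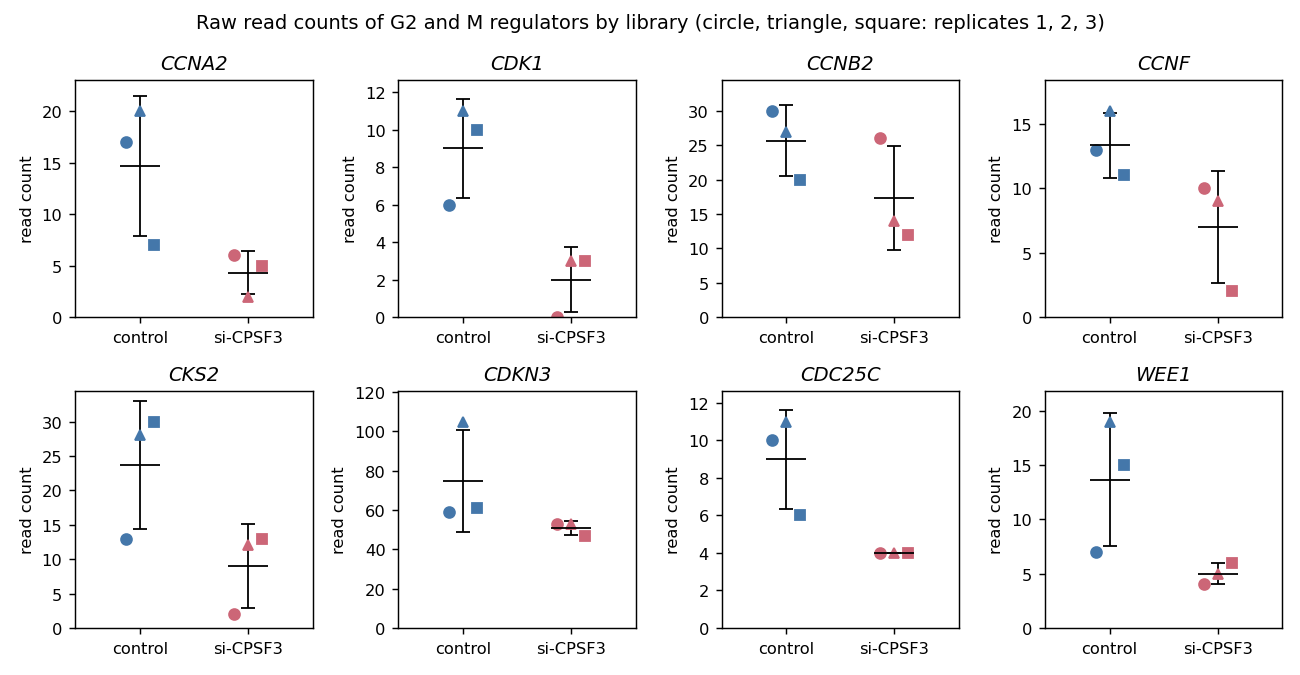
Raw read counts of 8 regulators of G2 and mitosis in each library, with the mean and SD of each group of 3; total counts were similar in all libraries. CDK1 has 6 to 11 counts in control libraries and 0 to 3 in the libraries labelled si-CPSF3. CCNB2 shows 1 library labelled si-CPSF3 within the control range, and CKS2 shows 1 at the lowest control count of 13. CDC25B of the G2/M set below is not shown, at a mean of 65.7 CPM in control libraries and 67.8 in the others. WEE1 is shown but is outside that set.

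When the genes known to act or peak in G2 and M were put together after their values had been seen (CCNA2, CCNB1, CCNB2, CCNF, CDK1, CKS2, CDKN3, CDC25B and CDC25C), 8 of the 9 had a lower mean in the libraries labelled si-CPSF3; CDC25B was the exception. The sum over all 9 genes was 118, 102 and 116 CPM in control libraries and 114, 81.0 and 85.7 CPM in the others, with overlap. Without CDC25B, which had the most counts of the 9 in every library and was taken out after its value was seen, the sum was 41.8, 52.3 and 45.3 CPM in control libraries and 29.5, 26.9 and 21.1 CPM in the others. The G1 set of D-type cyclins with CDK4 and CDK6 summed to 180, 184 and 190 CPM against 190, 153 and 198, with overlap. A G1/S set of 6 genes (CCNE1, CCNE2, CDK2, CDC25A, E2F1 and RBL1) summed to 12.2, 9.38 and 9.63 CPM against 8.59, 6.77 and 6.80, without overlap, so a lower sum was not particular to the G2/M genes. RBL1, the only tested gene of the G1/S set, made up its largest part, at means of 5.23 and 3.51 CPM, and its groups overlapped. In the G1/S set 1 gene lay lower without overlap, beside 5 of the 9 G2/M genes. Of all 11069 tested genes, 11.4% lay lower without overlap and 5627 had a log2 fold change below 0. CCNA2, CDK1 and CDC25C among the 5, and E2F1 in the G1/S set, were too low for the test. These counts are therefore not a like comparison. As the sets were formed with the values known, these sums carry no test. In bulk RNA, fewer cells in a phase and less RNA per cell cannot be told apart.

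The promoters of most, not all, of the G2/M genes hold letters of motifs known from cell-cycle promoters. As the genes were grouped as known G2/M genes, a high share was likely from the outset. It is no separate support for the grouping. In the 250 bases before the 5'-most RefSeq start of each gene (GRCh38.p14), 3 motifs known from cell-cycle promoters were searched on both strands: the cell cycle homology region (CHR), in any of the spellings TTTGAA, or else TTCGAA, or else TTTAAA, or else CTTGAA, the CCAAT box, spelled CCAAT, and the E2F site, in any of the spellings TTTCCCGC, or else TTTCGCGC, or else TTTGCCGC, or else TTTGGCGC. Sequences were found for 47 of the 53 genes. Windows at other listed starts were not searched. CDK1 and CDK6 have 2 listed starts and CDC25B and CDC25C have 4, so matches and absences hold for the 5'-most start only. Both CHR and CCAAT letters were present in 7 of the 9 G2/M genes, all but CDC25B and CDC25C, and in 23.4% of the 47, where 10.5% of 27305 promoters hold both. Of the transcriptional kinases, 0 of 6 held either. Of the 7 transcriptional cyclins, 5 held CCAAT letters, 2 held CHR letters and 1 held both. The E2F letters were in 0 of the 9 G2/M genes, in 12.8% of the 47 and in 4 of the 7 RB and E2F genes, beside 2.78% of all promoters. The promoters below are shown because 4 belong to genes that were lower (CCNB1, CDK1, CCNA2, CKS2), 1 to a relative that holds the same letters and was not lower (CKS1B), and 1 to the higher kinase CDK6, which holds neither. Capitals mark the CHR and CCAAT letters, each sequence reads 5' to 3' on the strand of its gene, and the start follows the last base.
CCNB1, chr5:69166900-69167149, plus strand: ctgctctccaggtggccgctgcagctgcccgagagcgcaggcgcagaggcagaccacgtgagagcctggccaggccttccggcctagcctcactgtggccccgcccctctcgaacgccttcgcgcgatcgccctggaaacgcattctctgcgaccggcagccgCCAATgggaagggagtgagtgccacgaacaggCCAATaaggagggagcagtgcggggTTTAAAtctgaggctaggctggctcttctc
CDK1, chr10:60778081-60778330, plus strand: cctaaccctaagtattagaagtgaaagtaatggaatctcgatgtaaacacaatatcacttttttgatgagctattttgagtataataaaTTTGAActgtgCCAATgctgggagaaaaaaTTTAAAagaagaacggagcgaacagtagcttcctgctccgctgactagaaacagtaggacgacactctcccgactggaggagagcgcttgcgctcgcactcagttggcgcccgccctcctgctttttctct
CCNA2, chr4:121823884-121824133, minus strand: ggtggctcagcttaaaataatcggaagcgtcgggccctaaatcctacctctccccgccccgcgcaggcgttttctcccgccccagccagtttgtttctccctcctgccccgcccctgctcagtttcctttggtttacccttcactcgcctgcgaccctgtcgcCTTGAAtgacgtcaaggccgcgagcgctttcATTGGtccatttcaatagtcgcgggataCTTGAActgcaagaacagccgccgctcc
CKS2, chr9:89310945-89311194, plus strand: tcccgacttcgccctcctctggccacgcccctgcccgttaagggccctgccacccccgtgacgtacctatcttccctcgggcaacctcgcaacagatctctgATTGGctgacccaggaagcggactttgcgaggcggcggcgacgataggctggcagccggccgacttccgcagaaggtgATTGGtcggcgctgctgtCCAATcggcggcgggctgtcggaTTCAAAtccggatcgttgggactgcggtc
CKS1B, chr1:154974431-154974680, plus strand: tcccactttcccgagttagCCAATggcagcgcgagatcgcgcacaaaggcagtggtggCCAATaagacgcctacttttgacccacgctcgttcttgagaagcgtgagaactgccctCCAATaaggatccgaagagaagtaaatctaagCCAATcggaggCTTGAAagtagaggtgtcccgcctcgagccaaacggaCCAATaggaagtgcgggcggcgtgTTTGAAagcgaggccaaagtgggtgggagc
CDK6, chr7:92836574-92836823, minus strand: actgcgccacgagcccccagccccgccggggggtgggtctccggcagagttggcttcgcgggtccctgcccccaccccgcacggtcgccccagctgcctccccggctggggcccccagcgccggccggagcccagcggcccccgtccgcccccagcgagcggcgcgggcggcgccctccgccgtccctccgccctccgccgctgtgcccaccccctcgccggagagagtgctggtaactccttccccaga

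In CCNB1 the CHR letters span bases 30 to 25 before the start, in CCNA2 bases 28 to 23 and in CKS2 bases 29 to 24, each with a CCAAT box upstream of it at bases 55 to 51, 56 to 52 and 52 to 48. The CCAAT letters of CCNA2 and the CHR letters of CKS2 are on the opposite strand and so appear reversed and complemented. In CKS1B the nearest CHR letters lie at bases 30 to 25 and a CCAAT box at bases 54 to 50, the same arrangement. In CDK1 the letters lie farther out, from base 161 before the 5'-most of its 2 listed starts, and the other start was not searched. A match is a description of the letters and not evidence of a bound factor. Over all tested genes with a promoter sequence, the 666 that hold both motifs centred on a log2 fold change of -0.03 and 3.15% of them were called lower, beside 1.41% of the 7916 others. They were also called higher more often, at 1.35% beside 0.745%, so the letters did not go with lower calls alone.

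Of the 3 tested CDK inhibitors among the 53 genes, CDKN2C alone had an interval of the fold above 1. CDKN1A, a tested inhibitor outside the 53, was also higher without overlap (fold 1.42, interval 1.03 to 1.95, edgeR adjusted p = 0.271). CDKN2C, the INK4 protein p18 that blocks CDK4 and CDK6, had 6.10, 5.21 and 5.46 CPM in the controls and 14.2, 8.41 and 13.6 CPM in the others. The controls were tightly grouped and every library labelled si-CPSF3 stood above them. The fold was 2.15 with an interval of 1.41 to 3.28 (log2 fold change 1.10, SE 0.29, edgeR adjusted p = 0.0581), so CDK6 and an inhibitor of CDK6 were higher by similar amounts. CDKN1B, which encodes p27, had an interval of 0.721 to 2.36 and CDKN1C, which encodes p57, 0.552 to 1.98, both too wide to show a difference at this depth. The sign of CDKN1C was not stable, with a log2 fold change below 0 in 5 of 17 settings. CDKN2A and CDKN2B, the INK4 genes of chromosome 9, had 0 counts in all 6 libraries. With CCNE2 they are the 3 genes at 0, and 0 of 25541823 counts allows a level of up to 0.117 CPM (3 counts over the series, counting error only). All 3 overlap another coding gene, so the limit covers only reads that the authors' counting could assign to them. CDKN2D, the fourth INK4 gene, had 3 to 12 counts in a library.

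RB1 and the other pocket proteins, which hold E2F factors in check, went in different directions, none past the threshold. RB1 had 7.46, 3.75 and 3.12 CPM in the controls and 6.71, 5.84 and 9.07 in the others (log2 fold change 0.59, SE 0.37, edgeR adjusted p = 0.498). Its relative RBL2, p130, lay at 0.60 and RBL1, p107, at -0.59, both with overlapping groups. Of the E2F genes, E2F4, mostly a repressor partner of pocket proteins, had 19.0, 21.9 and 21.1 CPM in the controls and 16.1, 14.7 and 14.3 CPM in the others. The groups did not overlap and the fold was 0.728 with an interval of 0.543 to 0.975 (log2 fold change -0.46, SE 0.20, edgeR adjusted p = 0.280). E2F1, an activator of S-phase genes, was too low for the test, at 7, 8 and 10 counts against 4 in each of the others. TFDP1, the dimerisation partner of E2F factors, had a fold of 0.806 (interval 0.533 to 1.22).

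The transcriptional branch was compared with the cell-cycle branch, the contrast drawn by the choice of genes. Of the 13 transcriptional cyclins and CDKs, 11 were tested, 0 had an unadjusted p under 0.05, and their median log2 fold change was -0.02, within a range of -0.59 to 0.73. Of the 13 cell-cycle cyclins and CDKs, 8 were tested, 1 in each direction had an unadjusted p under 0.05, and their median was -0.11 within -1.46 to 1.10. With upper-quartile scaling the transcriptional median was 0.01 and the cell-cycle median -0.08. With library totals as the only scaling they were -0.12 and -0.21, so both moved with the scaling. The medians of the tested genes lay close to each other, and the cell-cycle genes had the wider range. No test of this difference was made. Genes too low for the test are outside both medians. In the fit without a count filter, CDK1 and CCNA2 were at -2.05 and -1.62 (edgeR adjusted p = 0.232 and 0.166). In that fit CCNE1 was at -0.03 and CDK2 at 0.72, and the transcriptional CDK7 and CDK8 were at 0.14 and 0.68.

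Among the transcriptional cyclins, CCNL2 and CCNL1, cyclins tied to splicing, were the most abundant on the FPKM scale. CCNL2 had 32.3, 33.3 and 40.9 CPM in the controls and 27.4, 33.4 and 30.2 in the others, with overlap (log2 fold change -0.22, SE 0.17, edgeR adjusted p = 0.591). CCNL1 had 12.0, 14.4 and 13.5 CPM against 11.3, 16.8 and 20.6, also with overlap (log2 fold change 0.29, SE 0.24, edgeR adjusted p = 0.625). The cyclins that join CDK9 in the elongation factor P-TEFb pointed apart. CCNT1 had 4.52, 4.79 and 4.42 CPM against 2.15, 3.27 and 3.63, while CCNT2 had 2.26, 2.71 and 2.86 CPM against 4.30, 4.44 and 4.31. Neither pair of groups overlapped, and neither gene passed (log2 fold changes -0.59 and 0.73, edgeR adjusted p = 0.519 and 0.406).

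None of the 4 tested transcriptional kinases differed between groups by more than its error. CDK12, which keeps long genes and DNA repair genes transcribed, had 44.1, 47.9 and 27.3 CPM in the controls and 44.3, 48.3 and 32.2 in the others. Replicate 3 was the lowest in each group, and the fold was 1.04 with an interval of 0.760 to 1.43. CDK13, its paralogue, had 3.16, 7.29 and 3.12 CPM against 5.10, 3.74 and 8.62, an interval of 0.682 to 2.37. The directions of CDK12 and CDK13 were not stable, as the log2 fold change of CDK12 was -0.07 with library totals as the only scaling and that of CDK13 was -0.06 without replicate 3 of the libraries labelled si-CPSF3. CDK9 and CDK10 had intervals of 0.472 to 1.78 and 0.641 to 1.89. CDK7 and CDK8 were too low for the test, at 3 to 13 and 4 to 13 counts in a library.

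**Figure D4:**
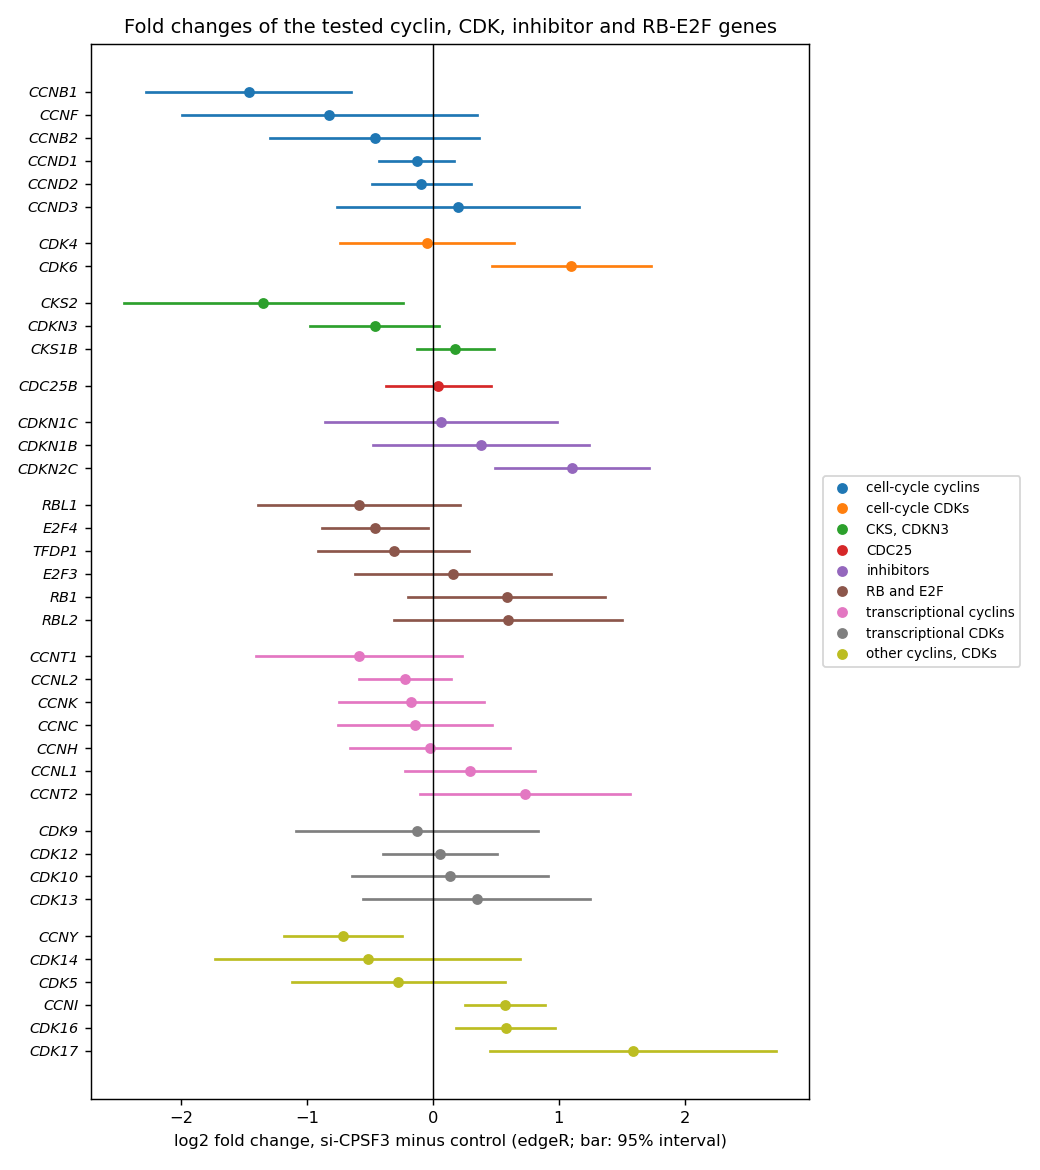
Log2 fold change (libraries labelled si-CPSF3 minus control) of the 38 tested genes with 95% intervals from the edgeR fit, grouped by role. The intervals of CCNB1 (-1.46), CKS2 (-1.35), CCNY and E2F4 lie below 0 and those of CDKN2C and CDK6 (1.10), CDK17 (1.59), CCNI and CDK16 above it, none past the adjusted threshold, while the transcriptional CDKs all have intervals that include 0.

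The remaining cyclins and kinases held several of the larger movements. CCNI, an atypical cyclin found in many tissues, had 107, 123 and 99.9 CPM in the controls and 151, 156 and 183 CPM in the others. The groups were well apart and the fold was 1.49 with an interval of 1.19 to 1.85 (log2 fold change 0.57, SE 0.15, edgeR adjusted p = 0.0614). CCNY, a membrane-anchored cyclin that activates CDK14 and CDK16, had 23.3, 22.5 and 32.8 CPM against 14.2, 19.4 and 14.1, without overlap (fold 0.610, interval 0.441 to 0.844, edgeR adjusted p = 0.107). CDK16, 1 of its partners, lay the other way, at 26.7, 20.6 and 19.8 CPM against 33.6, 36.9 and 29.9, again without overlap (fold 1.49, interval 1.14 to 1.96, edgeR adjusted p = 0.125). CDK17, a relative of CDK16, rested on few counts, 4, 12 and 2 in the controls and 18, 18 and 15 in the others (fold 3.01, interval 1.37 to 6.62, edgeR adjusted p = 0.150).

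Some lists of genes that work with or downstream of these regulators gave calls, where 0 of the 38 tested regulators did. Whether the lists and the regulators differ was not tested, and CDK1 and CCNA2 were among the regulators too low for the test. Of all tested genes, 1.51% were called lower and 0.723% higher. The lists were chosen with earlier results of these data known. Of 34 listed G1/S targets of E2F, 24 were tested, 4 fell and 0 rose, with a median log2 fold change of -0.57. The helicase subunits MCM4 (-1.51), MCM7 (-0.86) and MCM2 (-1.14) fell, with edgeR adjusted p = 0.00343, 0.00653 and 0.0273. Of 28 G2/M genes, 22 were tested, 12 fell and 0 rose, with a median of -1.40. CDC20, which switches on the anaphase-promoting complex (-1.85), the proliferation antigen MKI67 (-1.89) and the spindle gene GTSE1 (-2.14) fell, with edgeR adjusted p = 0.00133, 0.00180 and 0.00195. CDC20, MKI67, GTSE1, MCM4 and MCM7 passed in each of 6 fits with a single library removed, and MCM2 in 0. On both FPKM scales MKI67, MCM4, MCM7 and MCM2 missed the threshold, at limma adjusted p = 0.147, 0.129, 0.128 and 0.330 with a pseudocount of 1. MCM2 also missed it with DESeq2 (adjusted p = 0.0551) and with a replicate block (edgeR adjusted p = 0.0590). The DREAM and FOXM1 list gave 0 calls of 5 tested and a median of -0.03, with 4 genes below 0 and 1 above. In it FOXM1 was at -0.77, with overlapping groups, and RBBP4 at -0.72, without overlap (edgeR adjusted p = 0.172 and 0.159). Partners of the transcriptional kinases gave 0 of 16 with a median of -0.01, and the SCF and anaphase-promoting ligases 0 of 15 with a median of 0.14. Family members outside the 53 gave 0 of 12 with a median of 0.03. An unadjusted edgeR p under 0.05, which 15.4% of all tested genes reached, was found in 2 of the 5 DREAM and FOXM1 genes (both lower), 2 of the 16 kinase partners (both lower), 1 of the 15 ligase genes (higher) and 4 of the 12 family members (3 higher, 1 lower).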

How the data were processed

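RNA of 6 UM-UC-3 libraries was analysed, 3 per label. Per the labels' protocols, RNA from a Qiagen kit went into SMARTer mRNA libraries, and hg38 is the build in the submitters' processing notes. The aligner was not given in the sources used here, nor were the counting tool, strand setting or annotation. The authors deposited raw read counts per gene and FPKM values, the latter used here for levels between genes and as an alternative. For a name on several rows, the row of highest mean was taken; of the 53 genes, CDK7 and CDKN1C stood on 2 rows.

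Groups were compared with edgeR 4.0.16 (quasi-likelihood, R 4.3.3), using TMM factors, the default expression filter and no covariates. P-values were two-sided, Benjamini-Hochberg adjusted across 11069 genes and read at 0.05; the script was tested on simulated data. Intervals are at 95%, from the standard error and its degrees of freedom; those of count ratios are exact binomial intervals. Replicates of a group differed by more than sampling noise (chi-square per degree of freedom 5.91 to 14.2), so each library counted once. The genes, role lists and pathway lists were chosen with earlier results of these data known. Full values were given for genes past the threshold, genes whose groups did not overlap at a mean of at least 5 CPM and, in a role list with none, the 2 most abundant tested genes; values of CCNB2, CCNF, CCNT1, CCNT2, CCND2, CDK4, CDK17, CKS2, CDKN3, RB1, RBL1, RBL2, TFDP1 and the untested genes were added after they had been seen, as were the G2/M, G1 and G1/S groupings. Alternatives were other scalings and filters, DESeq2 1.42.0, limma-voom (limma 3.58.1), a replicate block, each library left out, log2 FPKM with pseudocounts of 1 and 0.1 (rows at 1 FPKM or more in 3 libraries), and summed rows.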

Additional observations from a re-analysis of the deposited data

How the results depend on the processing

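No gene of the 53 was called in 14 of the 17 alternatives; 4 were called without a filter on low counts (CCNB1, CCNI, CDK6, CDKN2C), the same 4 with distinct rows summed, and 1 with DESeq2 (CCNI), which gave 12669 genes no adjusted p. Against 247 genes called in all, no filter gave 547, the replicate block 147, log2(FPKM + 1) 31, log2(FPKM + 0.1) 18, and leaving out 1 library 85 to 199 (122 without control replicate 1, 115 without si-CPSF3 replicate 1 and 85 without si-CPSF3 replicate 2), where fewer samples were fitted. No pairing by replicate number was seen: same-numbered deviations correlated at 0.06, 0.08 and -0.05, and the others between -0.14 and 0.08. With 3 libraries per group this check cannot exclude a pairing. The block called 0 of the 53, as did the main fit. CPSF3 stayed above 0 and short of the threshold throughout, at 0.38 to 0.91 with 1 library left out. CCNB1, CDK6, CDKN2C and CCNI kept their direction in every setting that tested them; with 1 library left out their adjusted p ran from 0.0556 to 0.197, 0.077 to 0.276, 0.0518 to 0.179 and 0.0627 to 0.212. Small changes turned direction, and the cause was not tested. This held for 14 of the 38 tested genes over the settings; beside the 5 below they were CCNC, CCND3, CCNH, CCNK, CDK9, CDK10, CDK14, CDKN1C and E2F3, between -0.88 and 0.89 in all. The 5 were CDC25B at -0.0558 with library totals, -0.21 on both FPKM scales and -0.12 to 0.20 with 1 library left out; CCNL1 at -0.0176 and -0.0218 on the FPKM scales; CDK12 at -0.0652 with library totals and -0.12 to 0.22 with 1 library left out; CDK4 from -0.31 to 0.32 and CDK13 from -0.0556 to 0.89 with 1 library left out. Library totals moved the median of all genes to -0.10 and the calls to 36 higher and 154 lower, from 80 and 167. At 4145385 to 4378899 counts a library, 12 of the 53 genes stayed below the test.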

Other observations

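The INK4 genes at 0 counts lie beside genes that were read. On chromosome 9 (GRCh38.p14), FOCAD (20655625 to 20995950) had 56 to 134 counts in a library, KLHL9 (21329665 to 21335404) 10 to 27 and MTAP, a methionine salvage enzyme (21802636 to 21941115), 17 to 34. The next genes, CDKN2A (21967752 to 21995324), CDKN2B-AS1, CDKN2B (22002903 to 22009313) and DMRTA1 (22446824 to 22455740), had 0 counts in all 6 libraries. In GENCODE 29, CDKN2A and CDKN2B overlap the coding gene AL359922.1 and the counting of reads in overlaps was not stated in any source used. These genes were looked up after CDKN2A and CDKN2B had been seen at 0.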
